A study of Mus musculus with 16 samples.

Results

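The genes that govern entry of a T cell into the cell cycle were examined in RNA sequencing of mouse splenic CD4+ T cells. They are 10 genes chosen by symbol and role, with no threshold on a measured value, of 53090 genes in the deposited tables: the D cyclins Ccnd2 and Ccnd3, the E cyclins Ccne1 and Ccne2, the G1 kinases Cdk4 and Cdk6, the CIP/KIP inhibitors Cdkn1a and Cdkn1b, and the INK4 inhibitors Cdkn2c and Cdkn2d. All 10 were found, and all 10 passed the filter on low counts in every comparison.

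There were 4 groups with 4 libraries each, 16 in all. WT Tn and Aim2-/- Tn were naïve CD4+ T cells of WT and Aim2-/- spleens, used fresh. WT Treg and Aim2-/- Treg were CD4+ T cells of those genotypes after 2 days (48 h) under Treg conditions. For Treg differentiation the study's methods give stimulation with recombinant human TGF-beta and recombinant mouse IL-2 added. They do not name the stimulus there, and give anti-CD3 and anti-CD28 antibodies for a separate stimulation of CD4+ T cells. Per the study's methods the mice were on the C57BL/6 background and matched for sex and age, and naïve cells were taken by immunomagnetic selection. Ages are not given in the sources used here, and no source says whether libraries with the same number share a mouse or a day. The p-values therefore measure the spread between these libraries, part of which may be technical. Because stimulation, cytokines and time in culture all differ between Treg and Tn libraries, their parts in a Treg to Tn difference cannot be told apart.

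A resting T cell is held before DNA synthesis by inhibitor proteins that occupy cyclin-dependent kinases. Signals through the antigen receptor, CD28 and the IL-2 receptor raise D cyclins, which pair with CDK4 and CDK6 and start the phosphorylation of RB. E2F factors are then released and switch on the E cyclins, which pair with CDK2. INK4 proteins bind CDK4 and CDK6, while p21 (Cdkn1a) and p27 (Cdkn1b), of the CIP/KIP family, bind cyclin and CDK together. Much of this control acts on proteins, which were not measured here.

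Levels are given in CPM, the count scaled to a common library size with TMM factors. Library totals lay between 22516424 and 34533316 counts. A floor of 3 counts of such a total corresponded to 0.0869 to 0.133 CPM. Aim2 itself read 35.1 ± 2.75 CPM in WT Tn and 7.41 ± 1.24 in Aim2-/- Tn (SD, n = 4 each), and 39.9 ± 3.20 and 9.20 ± 1.58 in the Treg groups, with no overlap between genotypes. Foxp3 lay between 1.98 and 4.02 CPM in the Tn libraries and between 278 and 573 CPM in the Treg libraries. Of the lists of other cell types, none summed to more than 19.9 CPM in a library (7 myeloid genes, WT Tn), beside 1857 to 4283 CPM for 7 CD4 T cell genes. The 4 WT Tn libraries fell into unlike pairs. Counts of replicates 1 and 2 differed by a chi-square of 13.5 per degree of freedom and those of replicates 3 and 4 by 11.5, but a library of the first pair and one of the second by 73.3 to 94.2. A weaker split of this kind was present in Aim2-/- Treg, with 10.3 and 13.5 within the pairs and 21.6 to 49.5 between them. Replicates 1 and 2 did not overlap with replicates 3 and 4 in 65.5% of 14669 genes in WT Tn, beside 39.2% in Aim2-/- Tn, 49.2% in WT Treg and 59.5% in Aim2-/- Treg. No label calls these pairs a batch. Fold changes of the 10 genes between WT Treg and WT Tn are therefore given also within each pair. Those of Aim2-/- are given with the gene or, for most, in the section on processing. Because the pairs were formed from alike WT Tn libraries, the spread within a pair is small by that choice. Adjusted p-values within pairs thus describe those libraries only and are no separate support.

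In WT Tn, 7 of the 10 genes did not overlap between these pairs of libraries, near the 65.5% of all genes. Of these, Cdkn1a, Ccne2 and Ccne1 differed more than 2-fold, and 7.3% of all genes both did not overlap and differed that much. In Aim2-/- Tn, WT Treg and Aim2-/- Treg, 5, 7 and 8 of the 10 did not overlap, beside 39.2%, 49.2% and 59.5% of all genes. In those groups 0 of the 10 also differed more than 2-fold, near the 1.55%, 1.97% and 5.17% of all genes that did both. Cdkn1a, which encodes p21, read 9.36, 15.8, 0.549 and 1.16 CPM in replicates 1 to 4 of WT Tn. Its mean was thus 14.7 times higher in replicates 1 and 2 than in replicates 3 and 4. In Aim2-/- Tn it read 9.44, 3.87, 3.3 and 4.17 CPM, inside the WT range. Ccne2 moved as Cdkn1a did, with 3.63, 3.60, 0.845 and 1.36 CPM, and Ccne1 the other way, with 3.01, 2.17, 6.25 and 6.92 CPM. Ccnd2, Cdk4 and Cdkn2d were 1.57, 1.31 and 1.83 times higher in replicates 3 and 4, and Cdkn1b was 1.38 times higher in replicates 1 and 2. The balance of the E cyclins went with them: Ccne1 made up 52.1% and 44.2% of the pair per length in replicates 1 and 2 but 90.7% and 87.0% in replicates 3 and 4. That contrast was described after the values were seen and carries no test.

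**Figure D1:**
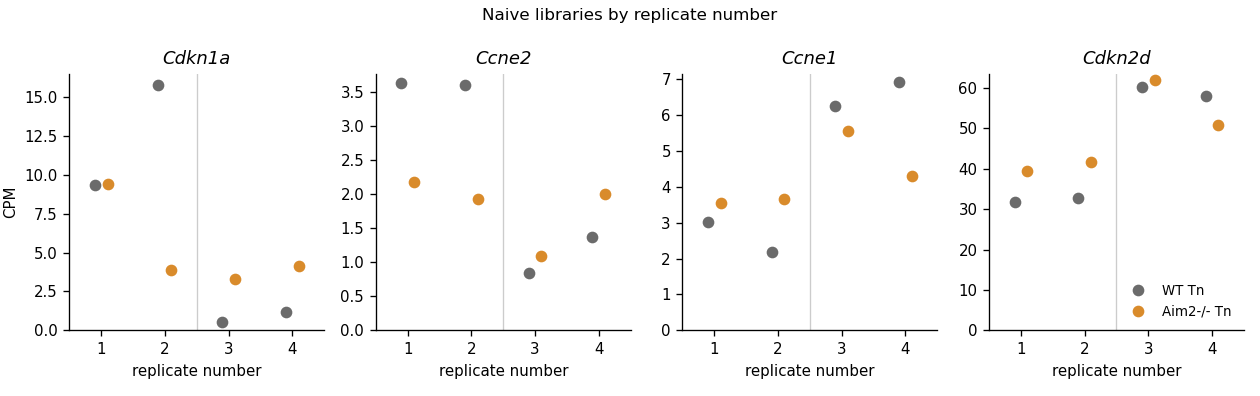
CPM (linear axes from 0) of Cdkn1a, Ccne2, Ccne1 and Cdkn2d in each naïve library against its replicate number, with WT Tn in grey and Aim2-/- Tn in orange. In WT Tn, Cdkn1a lies at 9.36 and 15.8 in replicates 1 and 2 and at 0.549 and 1.16 in replicates 3 and 4, while Ccne1 and Cdkn2d are higher in replicates 3 and 4.

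The first question was how the G1 genes stand to each other in each state, which needs counts divided by exon length. On the scale of CPM per kb of exon, Cdkn1b had the highest mean in both naïve groups, with 46.4 ± 8.71 in WT Tn and 42.7 ± 6.90 in Aim2-/- Tn (SD, n = 4). It overlapped the next gene, Ccnd2 in WT Tn and Cdkn2d in Aim2-/- Tn, so the first place was not resolved. In WT Tn replicate 3 Ccnd2 read 40.7 and Cdkn1b 37.9, and in Aim2-/- Tn replicate 3 Cdkn2d read 39.4 and Cdkn1b 32.7. Cdkn2d, Cdk4, Ccnd2 and Ccnd3 followed between 24.7 and 32.8, and each overlapped its neighbour in the order. A gap then separated the other 5 genes, Cdkn1a, Ccne1, Cdkn2c, Cdk6 and Ccne2, none of which had a group mean above 1.89. Neighbours among these 5 overlapped as well, so their order was not resolved. In the naïve cells the abundant G1 messages were thus p27, p19 (Cdkn2d), Cdk4 and both D cyclins.

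After 2 days in Treg conditions Cdk4 stood first, with 108 ± 3.44 CPM per kb in WT Treg and 113 ± 10.02 in Aim2-/- Treg, and did not overlap Ccnd2, the next, with 51.2 ± 2.52 and 50.95 ± 4.37. Ccne1, at 32.2 ± 4.6 and 34.6 ± 5.02, had reached the level of Ccnd3, at 31.3 ± 6.21 and 34.8 ± 7.40, and overlapped it. Cdkn1b had dropped to the ninth place, with 6.88 ± 1.06 and 6.27 ± 1.16, and overlapped both Cdkn1a and Cdk6. Cdk6 was last, at 4.6 ± 1.22 and 4.68 ± 1.09.

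**Figure D2:**
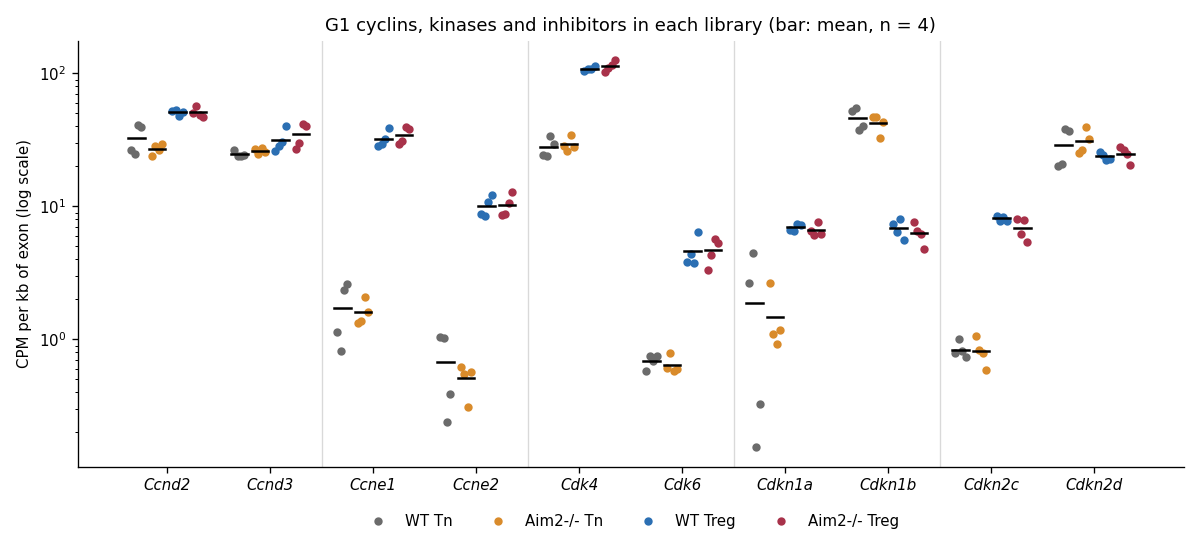
CPM per kb of exon (log axis) of the 10 genes, 4 points per group for the 4 libraries and a black bar for their mean. Points of WT and Aim2-/- overlap in each state, with a wide spread of Cdkn1a in WT Tn (0.155 to 4.44). Ccnd2, Ccne1, Ccne2, Cdk4, Cdk6, Cdkn1a and Cdkn2c lie higher and Cdkn1b lower in both Treg groups than in both Tn groups.

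The second question was which of these genes differ between Treg and Tn cells. In WT, 7 of 10 were higher in Treg and 1 lower, and in Aim2-/-, 8 were higher and 1 lower (edgeR quasi-likelihood test, adjusted p under 0.05). So many genes differed between these states that the count alone says little. Of all genes tested, 76.9% were called in WT (37.7% higher, 39.2% lower) and 79.3% in Aim2-/- (39.1% higher, 40.2% lower). The libraries of Treg and Tn did not overlap for 8 of 10 genes in each genotype, beside 72.9% and 74.8% of all genes. The sizes of the differences were larger: the median size over the 10 genes was 2.32 in WT and 2.47 in Aim2-/- on the log2 scale, beside 0.94 and 0.97 over all genes. The 10 genes were chosen with earlier results of these data known, so this comparison of sizes carries no test. As bulk RNA was measured, more cells in a cycling state and more RNA of a gene per cell cannot be told apart.

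The E cyclins, which drive CDK2 at the end of G1, had the largest differences. Ccne1 read 3.01, 2.17, 6.25 and 6.92 CPM in WT Tn and 75.4, 79.2, 85.4 and 103 CPM in WT Treg. In the knockout it read 3.56, 3.65, 5.55 and 4.30 CPM in Tn and 79.0, 82.0, 105 and 102 CPM in Treg. Every Treg library was thus over 10 times above every Tn library of its genotype. The fold was 18.3 in WT (95% interval 10.7 to 31.3, edgeR adjusted p = 3.2e-06) and 21.4 in Aim2-/- (16.7 to 27.4, adjusted p = 7.7e-10). Within replicates 1 and 2 alone the WT fold was 30, and within replicates 3 and 4 alone 14.

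Ccne2 went from 3.63, 3.60, 0.845 and 1.36 CPM in WT Tn to 30.8, 29.8, 38.0 and 42.8 CPM in WT Treg. The knockout libraries read 2.17, 1.92, 1.09 and 2.00 CPM in Tn and 30.3, 30.7, 36.9 and 44.7 CPM in Treg. The fold was 14.6 in WT (7.71 to 27.5, edgeR adjusted p = 1.8e-05) and 19.6 in Aim2-/- (14.3 to 26.9, adjusted p = 6.4e-09). The WT fold was 8.51 within replicates 1 and 2 and 35.1 within replicates 3 and 4, where Ccne2 in Tn was low. By size of difference Ccne1 ranked 791 and Ccne2 950 among 13675 genes tested in WT.

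The kinases rose as well. Cdk4, the main D cyclin partner in these libraries by level, read 79.3, 77.5, 110 and 95.3 CPM in WT Tn and 340, 349, 353 and 367 CPM in WT Treg, a fold of 3.80 (3.19 to 4.53, edgeR adjusted p = 2.3e-07). In Aim2-/- it read 92.5, 85.0, 113 and 91.2 CPM in Tn and 333, 355, 373 and 410 CPM in Treg, a fold of 3.83 (3.27 to 4.49, adjusted p = 1.4e-08). The WT fold was 4.46 within replicates 1 and 2 and 3.43 within replicates 3 and 4. The Treg libraries formed a narrow band in both genotypes, far above the Tn values. Cdk6, the second D cyclin partner, rose 6.51-fold in WT (4.90 to 8.65, adjusted p = 5.9e-07) and 7.19-fold in Aim2-/- (5.48 to 9.44, adjusted p = 6.2e-08). Its Tn libraries lay between 8.11 and 11.02 CPM in both genotypes, and its Treg libraries between 46.6 and 89.1 CPM. The WT fold of Cdk6 was 6.34 within replicates 1 and 2 and 6.92 within replicates 3 and 4. Cdk6 thus had the larger fold and Cdk4 by far the larger level.

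The D cyclins differed least among the genes that were called. Ccnd2 read 248, 233, 383 and 370 CPM in WT Tn and 494, 502, 448 and 482 CPM in WT Treg, and the lowest Treg library was above the highest Tn library. The fold was 1.53 in WT (1.19 to 1.96, edgeR adjusted p = 0.0058) and 1.87 in Aim2-/- (1.62 to 2.16, adjusted p = 3.6e-06). It was 2.10 within WT replicates 1 and 2 and 1.21 within replicates 3 and 4. Ccnd3 ranged from 209 to 232 CPM in WT Tn and from 229 to 353 CPM in WT Treg, so that the groups overlapped. Its fold was 1.24 (1.03 to 1.5, adjusted p = 0.040) in WT and 1.32 (1.08 to 1.61, adjusted p = 0.016) in Aim2-/-. These calls did not hold when single naïve libraries were left out: the WT call was lost without any of the 4 WT Tn libraries (adjusted p 0.058 to 0.10) and the Aim2-/- call without Aim2-/- Tn replicate 1, 2 or 4 (0.057 to 0.076). Within replicates 1 and 2 alone, the Ccnd3 fold was 1.10 in WT and 1.11 in Aim2-/- with adjusted p = 0.15 and 0.24 by edgeR. Within replicates 3 and 4 alone it was 1.44 in WT (adjusted p = 0.014) and 1.53 in Aim2-/- (adjusted p = 0.00034).

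Among the inhibitors, Cdkn1b fell. This gene encodes p27, which holds resting lymphocytes out of the cycle. It read 238, 252, 172 and 182 CPM in WT Tn and 33.8, 29.4, 36.5 and 25.6 CPM in WT Treg, and 215, 215, 149 and 198 against 34.6, 29.6, 28.1 and 21.8 CPM in Aim2-/-. The lowest Tn library was over 4 times the highest Treg library in each genotype. It was 6.89-fold lower in WT Treg (log2 fold change -2.79, 95% interval -3.15 to -2.42, edgeR adjusted p = 2.2e-07) and 6.85-fold lower in Aim2-/- Treg (-2.78, -3.13 to -2.42, adjusted p = 4.3e-08). Within WT replicates 1 and 2 alone the log2 fold change was -2.94, and within replicates 3 and 4 alone -2.54.

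Cdkn1a, the other CIP/KIP gene, read 23.5, 23.3, 26.3 and 25.9 CPM in WT Treg and 23.1, 21.7, 27.3 and 21.9 CPM in Aim2-/- Treg, above all Tn libraries. The fold in Aim2-/- was 4.5 (2.85 to 7.09, edgeR adjusted p = 5.4e-05). In WT it was 3.60 with a wide interval (1.04 to 12.5, adjusted p = 0.057), because the WT Tn libraries ran from 0.549 to 15.8 CPM. The fold was 1.90 within replicates 1 and 2 (adjusted p = 0.013) and 29.1 within replicates 3 and 4 (adjusted p = 1.4e-05). Without WT Tn replicate 2 the WT log2 fold change was 2.67 (adjusted p = 0.017), and without WT Tn replicate 3 it was 1.47 (adjusted p = 0.048). Only these 2 of 8 fits with 1 library left out called Cdkn1a in WT (edgeR adjusted p 0.017 to 0.097 over the 8). Limma-voom gave 2.91 (adjusted p = 0.0048). Of 11 other settings, limma-voom among them, 8 called it, and DESeq2 did not. The direction held in all of these.

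The INK4 genes parted. Cdkn2c, which encodes p18, read 2.11, 2.73, 2.20 and 1.98 CPM in WT Tn and 23.0, 21.0, 22.4 and 21.0 CPM in WT Treg, a fold of 9.49 (7.75 to 11.6, edgeR adjusted p = 1.9e-08). In Aim2-/- it read 2.85, 2.24, 2.14 and 1.58 CPM in Tn and 21.7, 16.7, 21.4 and 14.5 CPM in Treg, a fold of 8.38 (6.14 to 11.4, adjusted p = 8.5e-08). The WT fold was 9.26 within replicates 1 and 2 and 10.2 within replicates 3 and 4. An inhibitor message was thus among the larger differences, and its Treg libraries were all above its Tn libraries. Cdkn2d, which encodes p19, overlapped between the states. It read 31.7, 32.9, 60.3 and 58.1 CPM in WT Tn and 40.6, 38.7, 35.3 and 35.6 CPM in WT Treg, with a log2 fold change of -0.32 (-0.80 to 0.17, adjusted p = 0.20). The direction depended on the libraries used: 0.32 within replicates 1 and 2 (adjusted p = 0.0053) and -0.77 within replicates 3 and 4 (adjusted p = 0.00019). In Aim2-/- the log2 fold change was -0.32 (-0.64 to 0.01, adjusted p = 0.068), -0.46 without Aim2-/- Tn replicate 1 (adjusted p = 0.015) and -0.43 without replicate 2 (adjusted p = 0.033). With at least 10 counts in every library it was -0.35 (adjusted p = 0.048). As in WT, it depended on the libraries used, with 0.08 within replicates 1 and 2 (adjusted p = 0.51) and -0.67 within replicates 3 and 4 (adjusted p = 0.001).

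**Figure D3:**
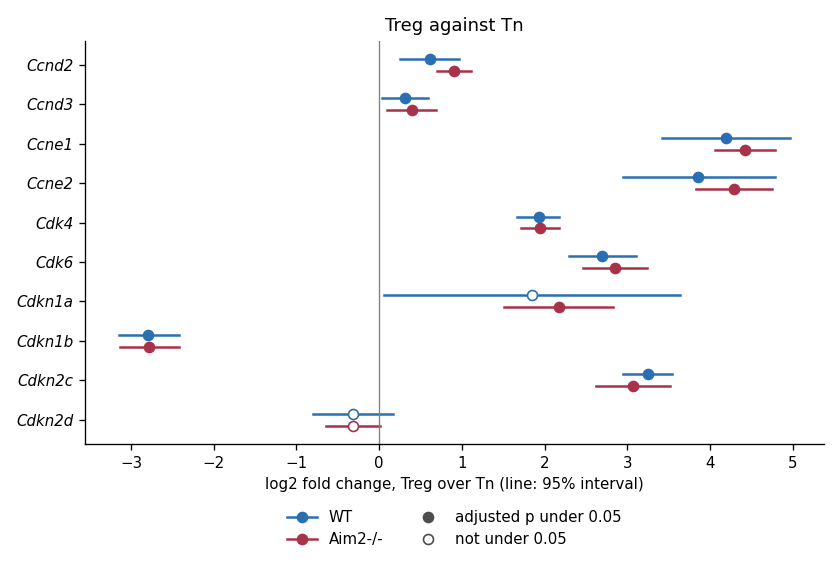
log2 fold change of Treg over Tn (horizontal axis) for each gene in WT (blue) and Aim2-/- (red), with 95% intervals as lines. Filled points have an edgeR adjusted p under 0.05. Ccne1, Ccne2, Cdkn2c and Cdk6 lie furthest right in both genotypes, Cdkn1b alone lies far to the left, and the WT interval of Cdkn1a runs from 0.06 to 3.64.

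Shares within a family do not depend on how libraries are scaled to each other. Per length, Cdkn1a made up 0.407% to 7.43% of Cdkn1a and Cdkn1b together in the Tn libraries and 46.1% to 56.4% in the Treg libraries. The CIP/KIP message thus went from almost all Cdkn1b to about equal parts. Cdkn2c made up 1.78% to 4.64% of the INK4 pair in Tn and 19.0% to 27.1% in Treg, without overlap. Ccne1 was 74.7% to 78.8% of the E cyclin pair in Treg. In WT Treg this share was above that of WT Tn replicates 1 and 2 (44.2% and 52.1%) and below that of WT Tn replicates 3 and 4 (87.0% and 90.7%). In Aim2-/- Tn it ran from 68.3% to 87.0%, around the Treg values. Cdk4 remained over 94% of the kinase pair in every library, with 97.0% to 98.4% in Tn and 94.7% to 96.9% in Treg, which did not overlap. Ccnd2 made up 47.0% to 63.1% of the D cyclin pair in Tn and 53.8% to 66.8% in Treg, which did.

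**Figure D4:**
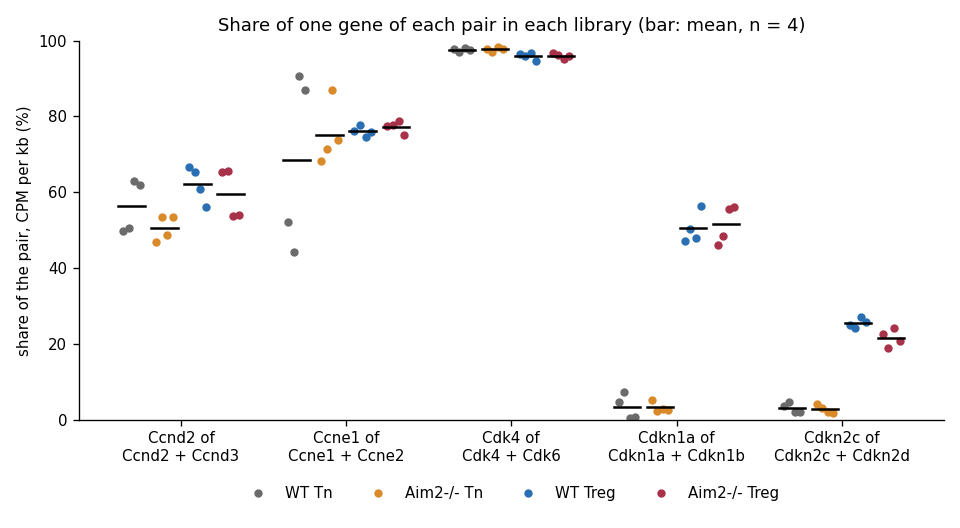
Share (%) of the first gene of each pair in the summed CPM per kb of the pair, 4 points per group for the libraries and a black bar for their mean. The Cdkn1a share reaches at most 7.43% in Tn and is at least 46.1% in Treg, the Cdkn2c share at most 4.64% and at least 19.0%, and the Ccne1 share in WT Tn falls into 44.2% to 52.1% and 87.0% to 90.7%.

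Summed by role, still per kb, the CIP/KIP messages were 48.3 ± 10.7 in WT Tn and 13.8 ± 1.18 in WT Treg, and 44.1 ± 7.36 and 12.9 ± 1.44 in Aim2-/- (SD, n = 4). The INK4 messages were 29.9 ± 9.82 and 32.0 ± 1.79 in WT and 31.7 ± 6.44 and 31.8 ± 4.24 in Aim2-/-, so that their sum overlapped between the states although Cdkn2c rose. The E cyclins went from 2.40 ± 0.498 to 42.3 ± 6.28 in WT and from 2.12 ± 0.221 to 44.8 ± 6.74 in Aim2-/-. The ratio of E cyclin to CIP/KIP message was between 0.0309 and 0.0740 in the Tn libraries and between 2.65 and 4.67 in the Treg libraries. The ratio of G1 kinase to INK4 message was between 0.799 and 1.20 in Tn and between 2.95 and 5.09 in Treg. Both ratios are of RNA and say nothing of the proteins.

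The start of Cdk4 is shown because it held the densest run of a fixed motif among these genes. RefSeq promoter windows (GRCm38.p6), taken as the 250 bases before a start, were matched for 8 of the 10 genes (11 windows), all but Ccnd2 and Ccne2. They were searched on both strands for the E-box CACGTG, bound by MYC and related factors, the forkhead word GTAAACA, the STAT word TTCNNNGAA, the cell cycle word TTTGAA and the E2F words TTTCCCGC, TTTGGCGC, TTTCGCGC and TTTGCCGC. No word is part of another. The Cdk4 window held 4 E-boxes, which begin 172, 118, 98 and 11 bases before the start. Of all 32851 windows of this length, 6.02% held at least 1 E-box and 0.0213% (7 windows) held 4 or more. Cdk4 and the E-box were picked for this run, so its rarity carries no test. Cdk6 held 1 E-box and Ccnd3 1 forkhead word, which 3.17% of all windows hold. No other match was found in the windows of these genes; the shares of all windows were 7.02% for STAT, 16% for the cell cycle word and 1.86% for E2F. Below, E-boxes are in capitals, and bases that lie in an annotated exon are left out. Cdkn1b, the gene that fell, is set beside Cdk4 and holds none of the words. Ccne1 and Cdkn2c, which rose, hold none of them either.
Cdk4, chr10:127063285-127063533, plus strand: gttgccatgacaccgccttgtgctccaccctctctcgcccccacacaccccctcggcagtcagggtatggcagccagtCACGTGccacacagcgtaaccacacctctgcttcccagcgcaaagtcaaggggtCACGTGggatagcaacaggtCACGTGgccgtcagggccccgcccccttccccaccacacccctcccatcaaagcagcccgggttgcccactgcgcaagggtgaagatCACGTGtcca
Cdkn1b, chr6:134920151-134920400, plus strand: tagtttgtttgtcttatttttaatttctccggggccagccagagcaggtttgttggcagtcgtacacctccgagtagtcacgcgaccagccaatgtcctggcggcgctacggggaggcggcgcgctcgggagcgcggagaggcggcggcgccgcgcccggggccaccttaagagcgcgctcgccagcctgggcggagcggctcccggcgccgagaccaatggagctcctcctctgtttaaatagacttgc
A match describes the letters in this window, and binding was not measured.

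The other genes of the pathway were followed in lists chosen by role. Their counts stand beside the 76.9% and 79.3% of all genes called in WT and Aim2-/-, and their medians beside -0.05 and -0.04 over all genes. Of 7 tested genes among the other cyclins, CDKs and inhibitors, 4 were higher and 3 lower in WT Treg than in WT Tn, and the counts were the same in Aim2-/-. Cdk1, the mitotic kinase, had the largest log2 fold change, 8.51 ± 0.17 in WT and 8.72 ± 0.14 in Aim2-/- (SE), followed by Ccna2 of S and G2 phase with 7.91 ± 0.20 and 8.28 ± 0.13. Cdk2, the partner of the E cyclins, rose less, by 1.42 ± 0.09 and 1.38 ± 0.10. Cdkn1c, the third CIP/KIP inhibitor, had log2 fold changes of -3.64 ± 0.34 and -3.98 ± 0.36 from at most 3.68 CPM in WT Tn. Ccnd1, the third D cyclin, was scarce throughout, with at most 2.02 CPM, and was called lower in both genotypes.

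Of 18 RB and E2F genes, 13 were higher and 3 lower in Treg in both genotypes, with a median log2 fold change of 0.86. The 88.9% called lies near the share of all genes. The repressors E2f8 and E2f7 led, with 7.72 ± 0.18 and 5.14 ± 0.38 in WT and 8.72 ± 0.23 and 5.88 ± 0.31 in Aim2-/-. The activators followed, with E2f3 at 4.24 ± 0.13 in WT and E2f1 at 4.23 ± 0.17 in Aim2-/-. Rbl2, which encodes p130, the pocket protein of resting cells, had -1.74 ± 0.15 and -1.62 ± 0.16. All 8 CDK activation genes were higher in both genotypes (median 0.96), among them Cdc25a, a phosphatase that activates CDKs (2.44 ± 0.10 and 2.68 ± 0.09), and Wee1, a kinase that restrains them (4.52 ± 0.20 and 4.59 ± 0.15).

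Of 14 genes for turnover of G1 proteins, 10 were higher in both genotypes and 3 lower in WT and 4 in Aim2-/-. Skp2 and Cks1b, which together mark p27 for destruction, rose by 3.23 ± 0.18 and 4.86 ± 0.09 in WT and by 3.36 ± 0.18 and 4.68 ± 0.11 in Aim2-/-. They rose in the libraries in which Cdkn1b RNA fell. Of 11 factors that act on transcription of G1 genes, 9 were lower and 2 higher in both genotypes, with medians of -2.57 and -2.52. Myc rose by 1.81 ± 0.20 and 1.74 ± 0.09. Klf4, Tob1 and Klf2, factors of quiescent T cells, had log2 fold changes of -5.24 ± 0.33, -3.99 ± 0.28 and -3.61 ± 0.15 in WT and -5.41 ± 0.22, -4.02 ± 0.15 and -4.27 ± 0.27 in Aim2-/-.

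All 13 markers of S, G2 and M phase were higher in Treg in both genotypes, with medians of 3.34 and 3.51 on the log2 scale. Mki67 went from 4.43 to 11.4 CPM in the Tn libraries to 1165 to 1493 CPM in the Treg libraries. The list of 5 Treg or activated genes summed to 37.8 to 107 CPM in Tn and to 1886 to 2396 CPM in Treg. Most of the Treg sum was Il2ra, with 1300 to 1512 CPM. Ctla4 of this list overlapped between the states. It read 12.8 to 80.0 CPM in WT Tn and 57.4 to 84.2 in WT Treg, and 64.5 to 80.6 and 55.1 to 81.9 in Aim2-/-. Markers of other cells were lower in Treg, for example 12.3 to 19.9 CPM over 7 myeloid genes in Tn and 1.79 to 3.92 CPM in Treg. The 3 NK cell genes summed to 1.74 to 7.36 CPM in Tn and to at most 0.0675 CPM in Treg. The 6 erythroid genes summed to 1.23 to 3.97 CPM in WT Tn, 5.28 to 7.94 CPM in Aim2-/- Tn and at most 0.203 CPM in Treg. The 6 B cell genes summed to 1.07 to 1.605 CPM in WT Tn, 1.614 to 2.39 CPM in Aim2-/- Tn and 0.372 to 1.17 CPM in Treg, and the 2 CD8 genes to 8.94 to 12.3 CPM and 2.26 to 4.02 CPM. The B cell marker Ms4a1 and the granulocyte marker S100a8 were at 0 counts in all 16 libraries, and the myeloid genes Lyz2 and S100a9 in all 8 Treg libraries. The part of cycling cells and of other cells in the G1 differences was not tested.

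The third question was whether the G1 genes differ between Aim2-/- and WT cells. None was called in Tn or in Treg by edgeR, by DESeq2 or by limma-voom on all 8 libraries, and none of the 10 had an unadjusted edgeR p under 0.05. Of all genes tested, 0.231% were called in Tn (31 of 13441) and 0.219% in Treg (29 of 13221). An unadjusted edgeR p under 0.05 was reached by 1389 of 13441 genes in Tn and 304 of 13221 in Treg. That none of 10 genes reached it thus says little. The libraries of the genotypes overlapped for all 10 genes in both states, while 6.95% of all genes in Tn and 2.26% in Treg did not overlap. The median size over the 10 genes was 0.10 in Tn and 0.07 in Treg on the log2 scale, beside 0.15 and 0.08 over all genes.

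In Treg the intervals were narrow enough to bound a difference. All 95% intervals lay between -0.54 and 0.54 on the log2 scale. Cdk4 had the narrowest, with a fold of 1.04 (0.945 to 1.15), and Ccnd2 followed with 0.992 (0.893 to 1.10). The largest estimates were -0.24 (-0.54 to 0.06) for Cdkn2c, which read 14.5 to 21.7 CPM in Aim2-/- Treg and 21.0 to 23.0 CPM in WT Treg, and 0.15 (-0.25 to 0.54) for Ccnd3. Cdkn1a, at 24.7 ± 1.56 CPM in WT Treg and 23.5 ± 2.63 in Aim2-/- Treg (SD, n = 4), had a fold of 0.947 (0.821 to 1.09).

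In Tn the intervals were wider. The naïve genotypes also did not overlap in the summed erythroid and B cell markers given above, whose part was not tested. Apart from Cdkn1a, they lay between -1.38 (Ccne2) and 0.67 (Ccne1). Ccnd3 and Cdk4 were the best bounded, with folds of 1.07 (0.948 to 1.20) and 1.06 (0.866 to 1.29). For Cdkn1a the log2 fold change was -0.36 (-2.60 to 1.88), a range in which neither a large rise nor a large fall could be detected. Within replicates 1 and 2 alone, Cdkn1a gave -0.91 (edgeR adjusted p = 0.45), and within replicates 3 and 4 alone 2.09 (adjusted p = 0.021). Ccnd2 gave 0.04 (adjusted p = 0.89) and -0.53 (adjusted p = 0.030) in the same libraries. No other gene of the 10 was called within either pair. Of all genes, 498 were called within replicates 3 and 4 alone and 28 within replicates 1 and 2 alone. The share of genes tested was not taken for these fits, so the 2 calls cannot be set beside one. On all 8 libraries limma-voom gave 0.56 for Cdkn1a, and edgeR with a covariate for the pairs 0.32. The sign of the genotype difference of Cdkn1a in naïve cells thus depended on the libraries and on the method.

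**Figure D5:**
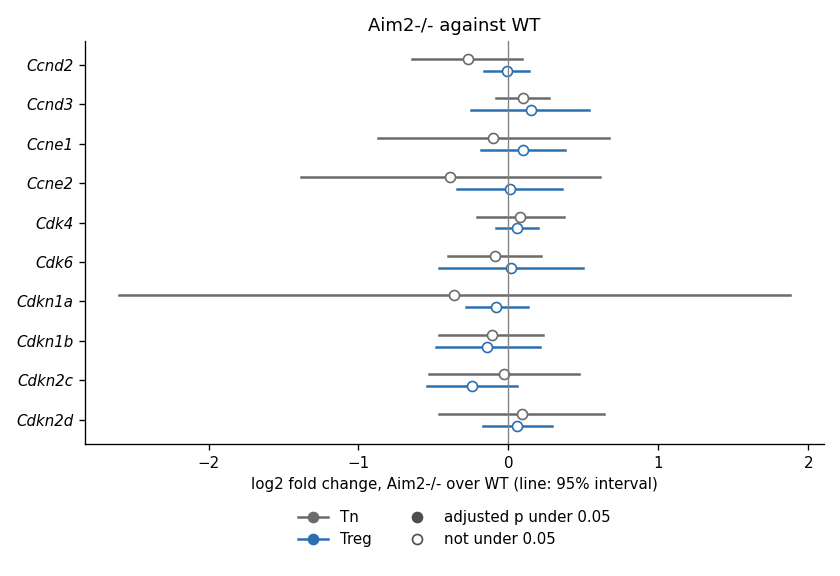
log2 fold change of Aim2-/- over WT (horizontal axis) for each gene in Tn (grey) and Treg (blue), with 95% intervals as lines. All points are open, as no edgeR adjusted p was under 0.05. The Treg intervals stay within -0.54 to 0.54, and the Tn interval of Cdkn1a runs from -2.60 to 1.88.

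Whether the genotype difference was itself unlike in Tn and Treg was tested with an interaction term over all 16 libraries. None of the 10 genes was called and none had an unadjusted edgeR p under 0.05, where 0.0205% of all genes (3 of 14669) were called. As only 513 of 14669 genes reached that unadjusted p, its absence among 10 genes says little. DESeq2 and limma-voom called none of the 10 either. The estimates ran from -0.20 (-0.71 to 0.31) for Cdkn2c to 0.41 (-0.59 to 1.40) for Ccne2. Cdk4 and Cdkn1b were closest to 0, with -0.01 (-0.34 to 0.32) and -0.01 (-0.50 to 0.47), and Cdkn1a was least certain, with 0.30 (-1.65 to 2.24). None of the genes of the pathway lists was called in either genotype comparison or in the interaction.

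The genes with the most similar profiles over the 16 libraries were found by the root mean square (RMS) difference of their log2 CPM, after subtraction of each gene's own mean. Ccne2 was closest to Chek1, a replication checkpoint kinase (RMS 0.22), and Aurka, a mitotic kinase (0.294). Ccne1 was closest to Akap1 (0.221) and Cdca7 (0.301), and Cdkn2c to Mcm3, a part of the replicative helicase (0.206). For Cdkn1b they were Rapgef2 (0.119) and Smad7, an inhibitor of TGF-beta signalling (0.128), and for Cdk4 Psma5 (0.0667) and Set (0.0673). The other closest genes were Rbm12 for Ccnd2 (0.115), Dnajc21 for Ccnd3 (0.0977), Shmt2 for Cdk6 (0.157) and Cdc42se1 for Cdkn2d (0.142).

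Cdkn1a was closest to Nr4a3, an immediate early gene of antigen receptor signalling (RMS 0.377), and Rasgef1b (0.486), where the SD of its own profile was 1.72. Nr4a3 read 242, 379, 16.7 and 19.2 CPM in WT Tn, 201, 77.4, 38.3 and 90.6 CPM in Aim2-/- Tn, and 271 to 469 CPM in Treg. Rasgef1b read 8.39, 12.4, 0.169 and 0.307 CPM in WT Tn. The high Cdkn1a libraries among the naïve ones were those with high Nr4a3. Nr4a3 was picked for its likeness to Cdkn1a over these same libraries, so this match is no separate finding. These likenesses are over libraries that share the 2 states, and they carry no test.

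Some counts may hold reads of other genes. The deposited counts of Ccnd2, Ccnd3, Ccne2 and Cdk4 were fractional in all 16 libraries and those of Cdk6 in 7, which means that RSEM divided reads between these and other genes there. The exons of Ccnd3, Ccne2 and Cdk4 overlap those of Bysl, Ints8 and Tspan31 on the opposite strand by 361, 609 and 641 bases, and those of Ccnd2, Cdk6 and Cdkn1a overlap antisense or unclassified transcripts by up to 372 bases. The libraries were stranded, but the strand setting used in counting is not given in the sources used here. The genes lie, on GRCm38, at chr6:127125162-127152193 (Ccnd2), chr17:47505051-47599691 (Ccnd3), chr7:38097984-38107534 (Ccne1), chr4:11191351-11204779 (Ccne2), chr10:127063534-127067920 (Cdk4), chr5:3341485-3531008 (Cdk6), chr17:29090976-29100727 (Cdkn1a), chr6:134920401-134925513 (Cdkn1b), chr4:109660876-109667189 (Cdkn2c) and chr9:21288410-21291407 (Cdkn2d).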

How the data were processed

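The study sequenced stranded poly(A) RNA of 16 libraries, 4 for each of WT Tn, Aim2-/- Tn, WT Treg and Aim2-/- Treg, as single-end reads. Per the study's methods the authors aligned reads to GRCm38 with STAR and estimated counts with RSEM on GENCODE annotation, and deposited the expected counts per gene of each library without normalization. Expected counts are estimates in which a read that fits several genes is divided among them. Tool versions and the strand setting are not given in the sources used here. Libraries were grouped and numbered by their sample titles. The file names of some libraries carry other numbers, which bears on every result that uses replicate numbers.

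Counts were rounded to whole numbers. A gene was kept if 4 or more of the compared libraries held at least 10 counts. Kept genes were scaled by TMM and tested with edgeR 4.0.16 (R 4.3.3; robust quasi-likelihood test, two-sided, Benjamini-Hochberg adjustment over all genes kept, threshold 0.05). Each comparison used the 8 libraries of its 2 groups, and the interaction all 16. Intervals are 95% intervals of the log2 fold change. CPM values divide counts by library totals times TMM factors of all 16 libraries, and log2 CPM uses a prior count of 2. Lengths are exon unions of GENCODE M21, in which 52489 of 53090 deposited genes were matched. The methods name both a GENCODE and an Ensembl release, neither of them this one, and which stands behind the counts was not settled, so levels per kb may differ from those on the authors' gene models.

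Alternatives were DESeq2 1.42.0, limma-voom (limma 3.58.1), other size factors and filters, a replicate block, a covariate for replicates 1 and 2 against 3 and 4, those pairs alone, and each library left out. The 10 genes, the lists and the tests were chosen with earlier results of these data known. Of each pathway list, up to 3 called genes with the largest changes in each direction and no overlap between groups could be named; genes named beyond that were chosen for their role after their values were seen. The part of Aim2 that the allele lacks is not given in the sources used here. One marker gene of naïve cells, and the list that holds it, are not reported here.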

Additional observations from a re-analysis of the deposited data

Results flagged for a closer look

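In 40 groups of 4 libraries (10 genes in 4 groups), a single library stood apart by Dixon's test 3 times, where chance gives about 1 in 20 groups. All 3 were the highest library of a naïve group. For Ccnd3 in WT Tn it was replicate 1, with 232 CPM beside 209 to 213 CPM (gap over range 0.838). For Cdk6 in Aim2-/- Tn it was replicate 2, with 11.02 CPM beside 8.11 to 8.54 CPM (0.85). For Cdkn1a in Aim2-/- Tn it was replicate 1, with 9.44 CPM beside 3.3 to 4.17 CPM (0.859). WT Tn replicate 1 also read high for Cdkn1a, with 9.36 CPM.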

How the results depend on the processing

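Of 540 log2 fold changes of the 10 genes recomputed under other settings, 493 kept direction and call, 3 lost a call, 12 gained one, 2 reversed with a call and 30 without one. Of 480 values with 1 library left out, 422 kept both, 7 lost a call, 4 gained one and 47 turned without one. The cause of these changes was not tested.

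Of all genes, 31 were called for genotype in Tn, but 127 by DESeq2, 49 without the filter, 18 with at least 10 counts in every library, 50 in a 16-library fit, 51 with the covariate for replicates 1 and 2, 498 (with 2 of the 10 genes) in replicates 3 and 4 alone, and 17 to 28 with 1 library left out. In Treg 29 were called, but 52 by DESeq2, 17 with at least 10 counts in every library, 5 in replicates 3 and 4 alone and 10 to 17 with 1 library left out. The interaction gave 3, but 10 by DESeq2, 0 with at least 10 counts in every library (369 at an unadjusted edgeR p under 0.05) and 2 to 5 with 1 library left out.

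The genotype log2 fold change in Tn turned for Ccne1 to 0.03 with limma-voom and 0.01 with the covariate, and for Cdkn1a to 0.56 and 0.32. In replicates 1 and 2 alone it was 0.04 for Ccnd2, 0.49 for Ccne1, 0.09 for Cdk6 and 0.09 for Cdkn2c. In replicates 3 and 4 alone it was 0.47 for Ccne2, -0.02 for Cdk4, 2.09 for Cdkn1a and -0.08 for Cdkn2d. With 1 library left out it ran from -0.33 to 0.16 for Ccne1, -0.01 to 0.18 for Cdk4, -0.82 to 0.49 for Cdkn1a, -0.18 to 0.11 for Cdkn2c and -0.06 to 0.25 for Cdkn2d. In Treg, Ccne2 turned to -0.01 with library totals, and in replicates 1 and 2 alone Ccnd2 to 0.02, Cdk4 to -0.00, Cdk6 to -0.11 and Cdkn1b to 0.03. With 1 library left out the Treg values ran from -0.07 to 0.02 for Ccnd2, -0.11 to 0.11 for Ccne2, -0.09 to 0.22 for Cdk6 and -0.00 to 0.15 for Cdkn2d.

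The Treg to Tn difference of Cdkn2d turned to 0.32 in WT and 0.08 in Aim2-/- in replicates 1 and 2 alone. Within Aim2-/- replicates 1 and 2 alone the Treg to Tn fold was 22.3 for Ccne1, 14.9 for Ccne2, 3.88 for Cdk4 and 5.45 for Cdk6. Within replicates 3 and 4 alone these folds were 21, 25.9, 3.82 and 9.34. For Ccnd2, Cdkn1a and Cdkn2c the Aim2-/- folds were 2.07, 3.39 and 7.58 in the first pair and 1.71, 6.53 and 9.63 in the second. The log2 fold change of Cdkn1b in Aim2-/- was -2.74 in the first pair and -2.80 in the second. The interaction of Cdkn1a turned to -0.63 with limma-voom and -2.15 in replicates 3 and 4 alone. Without the filter Cdk4 and Cdkn1b gave 0.01 and 0.01. In replicates 1 and 2 alone the interaction was -0.01 for Ccnd2, -0.41 for Ccne1, -0.20 for Cdk6 and 0.21 for Cdkn1b, and in replicates 3 and 4 alone -0.44 for Ccne2, 0.15 for Cdk4 and 0.10 for Cdkn2d. With 1 library left out it ran from -0.03 to 0.22 for Ccnd3, -0.06 to 0.44 for Ccne1, -0.10 to 0.07 for Cdk4, -0.55 to 0.72 for Cdkn1a, -0.13 to 0.11 for Cdkn1b and -0.17 to 0.12 for Cdkn2d.

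Cdkn1a, not called in WT Treg against WT Tn, was called at a log2 fold change of 1.92 with library totals (adjusted p = 0.046), 1.87 with at least 10 counts in every library (0.049), 1.88 in a 16-library fit (0.017) and 2.45 with the covariate (0.018), all by edgeR. It was not called by DESeq2, with RLE size factors or without the filter. Of 8 fits with 1 library left out, only 2 called it.

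Same-numbered libraries did not deviate together in every comparison: 2, 3, 1 and 0 of 4 pairs had a correlation over 0.1 in the Tn genotype, Treg genotype, WT and Aim2-/- comparisons, and 3, 4, 4 and 1 of 8 libraries correlated best with their own number. With a replicate block, 29, 41, 10355 and 10862 genes were called in these comparisons and 2 in the interaction. In that block Ccne1 and Cdkn1a turned to 0.02 and 0.37 in Tn, and in WT Cdkn1a gained a call (2.56, edgeR adjusted p = 0.034) and Ccnd3 lost it (0.30, 0.068).

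Shares from raw counts, not per length, were 70.9% and 72.1% for Ccne1 in WT and Aim2-/- Treg, 90.2% and 91.2% in Tn and 84.7% and 85.0% in Treg for Cdk4, 44.4% and 45.4% in Treg for Cdkn1a, and 5.17% and 4.54% in Tn and 36.8% and 32.0% in Treg for Cdkn2c. Depth limits the scarce naïve genes: at 0.549 CPM, Cdkn1a rests on 13 counts.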

Other observations

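Among the factors that act on G1 genes, Klf2 and Mxd4 did not overlap between the genotypes in Tn, although neither passed the test, and both were picked after their values were seen. Klf2, a zinc finger factor of naïve T cells, read 348 to 414 CPM in Aim2-/- Tn and 253 to 297 CPM in WT Tn (log2 fold change 0.45, edgeR adjusted p = 0.13). Mxd4, an antagonist of MYC, read 72.9 to 85.1 CPM in Aim2-/- Tn and 100.3 to 112.8 CPM in WT Tn (-0.37, adjusted p = 0.23). Tfdp2, Ddb1 and Plk1 of the other pathway lists did not overlap either (log2 fold change -0.29, -0.19 and 0.49, edgeR adjusted p = 0.43, 0.43 and 0.44). Of all genes in that comparison, 6.95% did not overlap, so this trait alone says little. The summed erythroid markers (1.23 to 3.97 CPM in WT Tn, 5.28 to 7.94 CPM in Aim2-/- Tn) and B cell markers (1.07 to 1.605 CPM and 1.614 to 2.39 CPM) did not overlap between these groups either, and their part was not tested.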
